A study of Mus musculus with 12 samples.

Results

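The 9 genes described here encode inhibitory receptors that lymphocytes carry beside PD-1: Lag3, Havcr2 (TIM-3), Tigit, Ctla4, Btla, Vsir (VISTA), Cd160, Cd244a and Cd96. They were taken by name, as the rows of the gene table whose Ensembl identifier carries one of these mouse symbols. The rule itself uses no measured value, but the list was drawn up with earlier results of these data known. All 9 were found among 55401 genes, and all 9 were among the 20818 genes with enough counts to be tested. RNA was sequenced from 12 tumors taken 21 days after 125000 cells of TC2Ras, a Ras-driven mouse prostate cancer line, were injected under the skin. The 3 Control tumors held TC2Ras cells alone in mice given water with 0 ppb inorganic arsenic (iAs). The 3 ASC tumors were seeded with 1% adipose-derived stromal cells taken from male transgenic C57BL/6 mice. The 3 As300 tumors held TC2Ras cells alone in mice drinking 300 ppb iAs, and the 3 ASC_As300 tumors had both the ASC and the iAs. All mice ate a low-arsenic diet, the left and right flank tumors of a mouse were combined, and neither the strain nor the age of the hosts was given in the sources used here. The labels name adipose-derived stromal cells as the cell type although the tissue sequenced was the excised tumor, so each value is a level in a mixture of cancer, stromal and immune cells. In such bulk samples fewer cells of a type and less RNA per cell cannot be told apart.

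Inhibitory receptors sit on the surface of T cells, NK cells and, for some, B cells or myeloid cells, and dampen the cell when they bind a ligand on a neighbor. Many of them are induced when a T cell is activated, and several are kept on when antigen persists, a state called exhaustion. In tumors, the ligands can be carried by cancer cells, macrophages and dendritic cells, and antibodies against CTLA-4 and LAG-3 are used to treat patients. CTLA-4 competes with the costimulatory receptor CD28 for CD80 and CD86, and it is abundant on regulatory T cells. LAG-3 binds MHC class II, TIM-3 binds galectin-9 and CEACAM1, TIGIT and CD96 bind the poliovirus receptor family, BTLA and CD160 bind HVEM, CD244 binds CD48, and VISTA, which myeloid cells carry in quantity, has PSGL-1 and VSIG3 among its partners.

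The members lie on 6 chromosomes of the mouse reference (GRCm38, GENCODE M21 annotation, used to name the genes, while the build used by the study is not given in the sources used here). Lag3 is at chr6:124904361-124911705 on the minus strand, Havcr2 at chr11:46454935-46481255 on the plus strand, and Cd160 at chr3:96798763-96829351 on the minus strand. Ctla4 (chr1:60887000-60915832) and Cd244a (chr1:171559193-171609746) share chromosome 1 and both are on the plus strand. Tigit (chr16:43648867-43664146, minus), Btla (chr16:45224315-45257670, plus) and Cd96 (chr16:46035657-46120251, minus) lie on chromosome 16, and Vsir is at chr10:60346851-60372684 on the plus strand. All 9 are annotated as protein coding.

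Promoter sequence was available from RefSeq (GRCm38.p6) for the members other than Lag3, as 9 windows of 250 bases before an annotated start, since Cd160 has 2 starts. The windows of Havcr2 and Cd160 are shown because these genes, with Lag3, are the members that pass the test in the comparison of tumors with and without ASC below. Each is written 5′ to 3′ on the gene's own strand, and capitals mark a motif match. The Havcr2 window is chr11:46454681-46454930 on the plus strand, and the Cd160 windows are chr3:96829352-96829601, before the outer start, and chr3:96814522-96814771, before a start inside the annotated gene, both on the minus strand. No base of these windows falls in an annotated exon of its gene.
Havcr2: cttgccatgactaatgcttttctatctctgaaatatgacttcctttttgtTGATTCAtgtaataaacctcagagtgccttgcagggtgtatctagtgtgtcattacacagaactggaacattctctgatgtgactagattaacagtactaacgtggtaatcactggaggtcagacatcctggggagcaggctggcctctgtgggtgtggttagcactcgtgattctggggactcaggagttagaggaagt
Cd160 outer start: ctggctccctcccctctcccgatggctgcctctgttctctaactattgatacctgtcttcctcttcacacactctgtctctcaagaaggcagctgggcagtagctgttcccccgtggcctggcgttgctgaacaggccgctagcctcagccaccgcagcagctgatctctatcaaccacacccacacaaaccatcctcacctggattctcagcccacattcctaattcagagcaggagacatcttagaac
Cd160 inner start: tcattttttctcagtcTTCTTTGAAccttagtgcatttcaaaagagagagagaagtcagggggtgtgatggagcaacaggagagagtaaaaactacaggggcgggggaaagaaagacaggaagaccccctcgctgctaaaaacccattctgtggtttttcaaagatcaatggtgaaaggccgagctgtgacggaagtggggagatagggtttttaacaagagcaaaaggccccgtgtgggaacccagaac

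Motifs were searched on both strands, with N standing for any base. They were the interferon-gamma activated site TTCNNNGAA, the interferon-stimulated response element (ISRE), the AP-1-like pattern TGANTCA, the NFAT core TGGAAAA and the T-box site AGGTGTGA. Havcr2 held TGANTCA, as TGATTCA, from 200 to 194 bases before its start. The inner window of Cd160 held TTCNNNGAA from 234 to 226 bases before its start. Among the other members, Ctla4 held the NFAT core, Cd244a TGANTCA, as TGAGTCA, and Cd96 TTCNNNGAA. Tigit, Btla, Vsir and the outer window of Cd160 held none of the motifs searched. Over all 32851 promoter windows of this length, 7.02% held TTCNNNGAA, 2.98% the ISRE, 6.75% TGANTCA, 5.93% the NFAT core and 1.12% the T-box site. A match of these letters is a description of the window, not evidence of a bound site.

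Per length, Vsir was the most abundant of the 9 receptors, with a median over the 12 tumors of 8.31 RPKM (counts per 1000000 divided by the merged exon length in kilobases). Tigit followed at 5.99 RPKM, Havcr2 at 3.31, Lag3 at 2.53 and Cd244a at 1.33. Ctla4 at 0.881, Cd96 at 0.567, Cd160 at 0.487 and Btla at 0.347 RPKM had the lower medians. Neighbors in this order separated unequally: Tigit exceeded Havcr2, and Havcr2 exceeded Lag3, in 12 of 12 tumors and Vsir exceeded Tigit in 11, whereas Lag3 exceeded Cd244a in 8, Cd96 exceeded Cd160 in 9 and Cd160 exceeded Btla in 9. The levels of Cd160, Cd96 and Btla rested on few reads, with counts of 25 to 100 for Cd160, 17 to 216 for Cd96 and 10 to 1031 for Btla per tumor.

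Total counts ran from 39157647 to 55168642 per tumor. Control replicate 1 stood apart from the other 11 tumors: the summed level of 5 B cell genes was 171.7 counts per 1000000 (CPM) there against 1.98 to 12.1 elsewhere, and that of 8 lymph node genes 152.9 against 9.06 to 24.2 CPM. Its 9 T cell genes summed to 78.3 CPM, against 14.0 and 15.6 in the other Control tumors, 12.2 to 17.3 in As300, 49.2 to 59.1 in ASC and 39.2 to 62.9 in ASC_As300. Its 4 epithelial tumor cell genes summed to 360.2 CPM against 25.5 to 116.2 elsewhere. Values without this tumor are given below beside the results that it changes most. The 6 macrophage and monocyte genes summed to between 1018 and 1695 CPM with the groups overlapping, and the 4 NK cell genes to between 4.34 and 7.17 CPM in Control, 6.48 and 8.48 in ASC, 2.95 and 5.97 in As300, and 6.61 and 9.58 in ASC_As300.

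**Figure D1:**
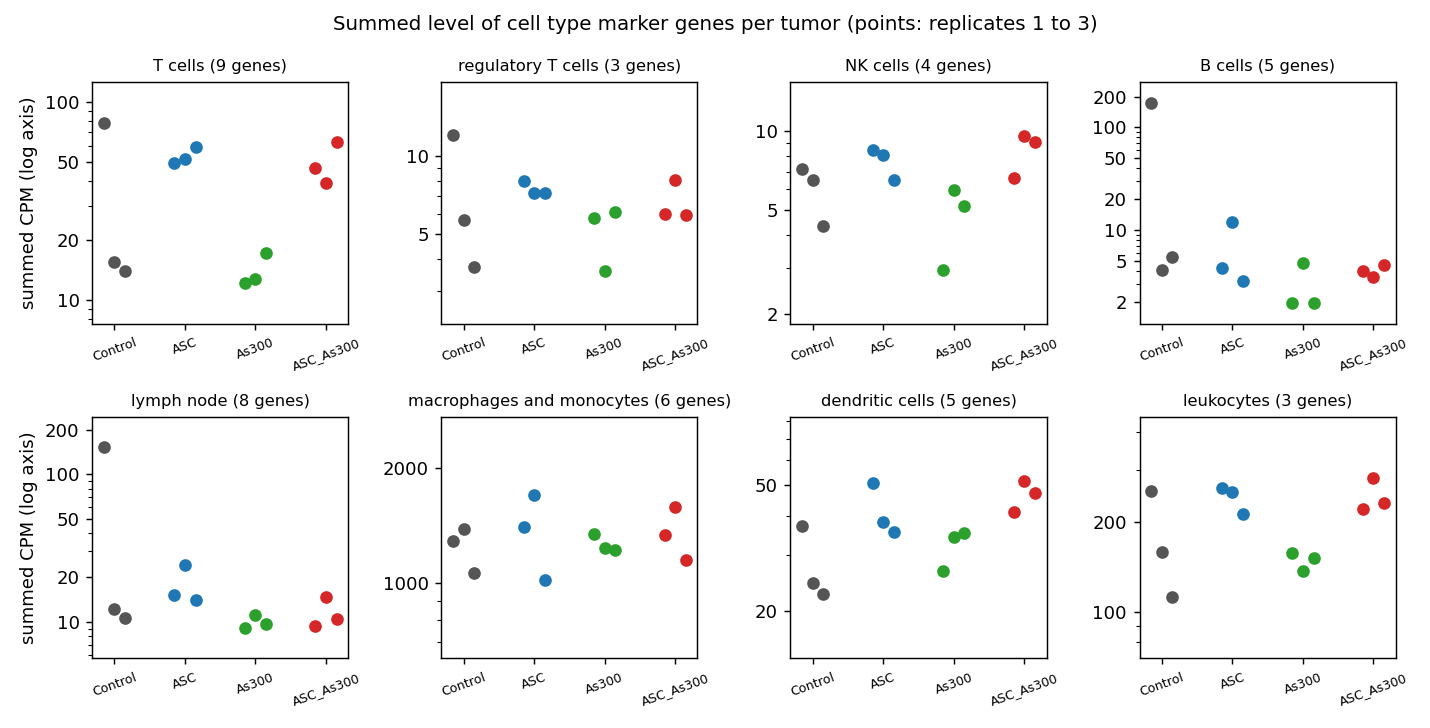
Summed level in CPM (log axis) of the marker genes of 8 cell types or tissues, 1 panel each, with a point for each of 3 tumors per group. T cell genes lie between 39.2 and 62.9 CPM in the 6 tumors with ASC, and Control replicate 1 is the highest point for T cell, B cell and lymph node genes.

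For 3 receptors, Lag3, Havcr2 and Cd160, the tumors with ASC and those without did not overlap. Lag3, a CD4-like receptor for MHC class II, was measured at 2.87, 1.77 and 1.48 CPM in Control and at 7.29, 6.51 and 8.60 CPM in ASC. In As300 it was at 1.73, 1.55 and 4.17 CPM, and in ASC_As300 at 8.51, 6.72 and 9.08 CPM. All 6 tumors with ASC lay above all 6 without, and As300 replicate 3 was the highest of the latter. Group means were 2.04 ± 0.738 CPM in Control, 7.47 ± 1.06 in ASC, 2.48 ± 1.46 in As300 and 8.10 ± 1.23 in ASC_As300 (SD, n = 3 each).

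Havcr2 encodes TIM-3, which is found on exhausted T cells and also on macrophages and dendritic cells. The Control tumors held 5.21, 6.33 and 6.64 CPM of it and the ASC tumors 14.3, 11.9 and 11.3 CPM. The As300 tumors held 6.91, 5.87 and 7.77 CPM and the ASC_As300 tumors 13.7, 10.3 and 13.9 CPM. Again no tumor with ASC fell within the range of those without, and group means were 6.06 ± 0.753 in Control, 12.5 ± 1.57 in ASC, 6.85 ± 0.952 in As300 and 12.6 ± 2.04 CPM in ASC_As300 (SD, n = 3 each).

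Cd160, a receptor of NK cells and cytotoxic T cells, was measured at a lower level. Its values were 0.971, 1.11 and 0.608 CPM in Control, 1.56, 1.98 and 2.33 in ASC, 0.625, 0.756 and 0.847 in As300, and 1.47, 1.46 and 1.88 CPM in ASC_As300. The 6 tumors with ASC again lay above the other 6. Tigit, a receptor of T and NK cells that competes with the activating receptor CD226, was at 3.49, 3.91 and 3.78 CPM in Control and 6.26, 8.15 and 9.44 in ASC. In As300 it was at 6.40, 4.35 and 3.23 CPM and in ASC_As300 at 5.49, 5.51 and 8.37 CPM. ASC and Control did not overlap for Tigit, but As300 replicate 1 reached into the range of the tumors with ASC.

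**Figure D2:**
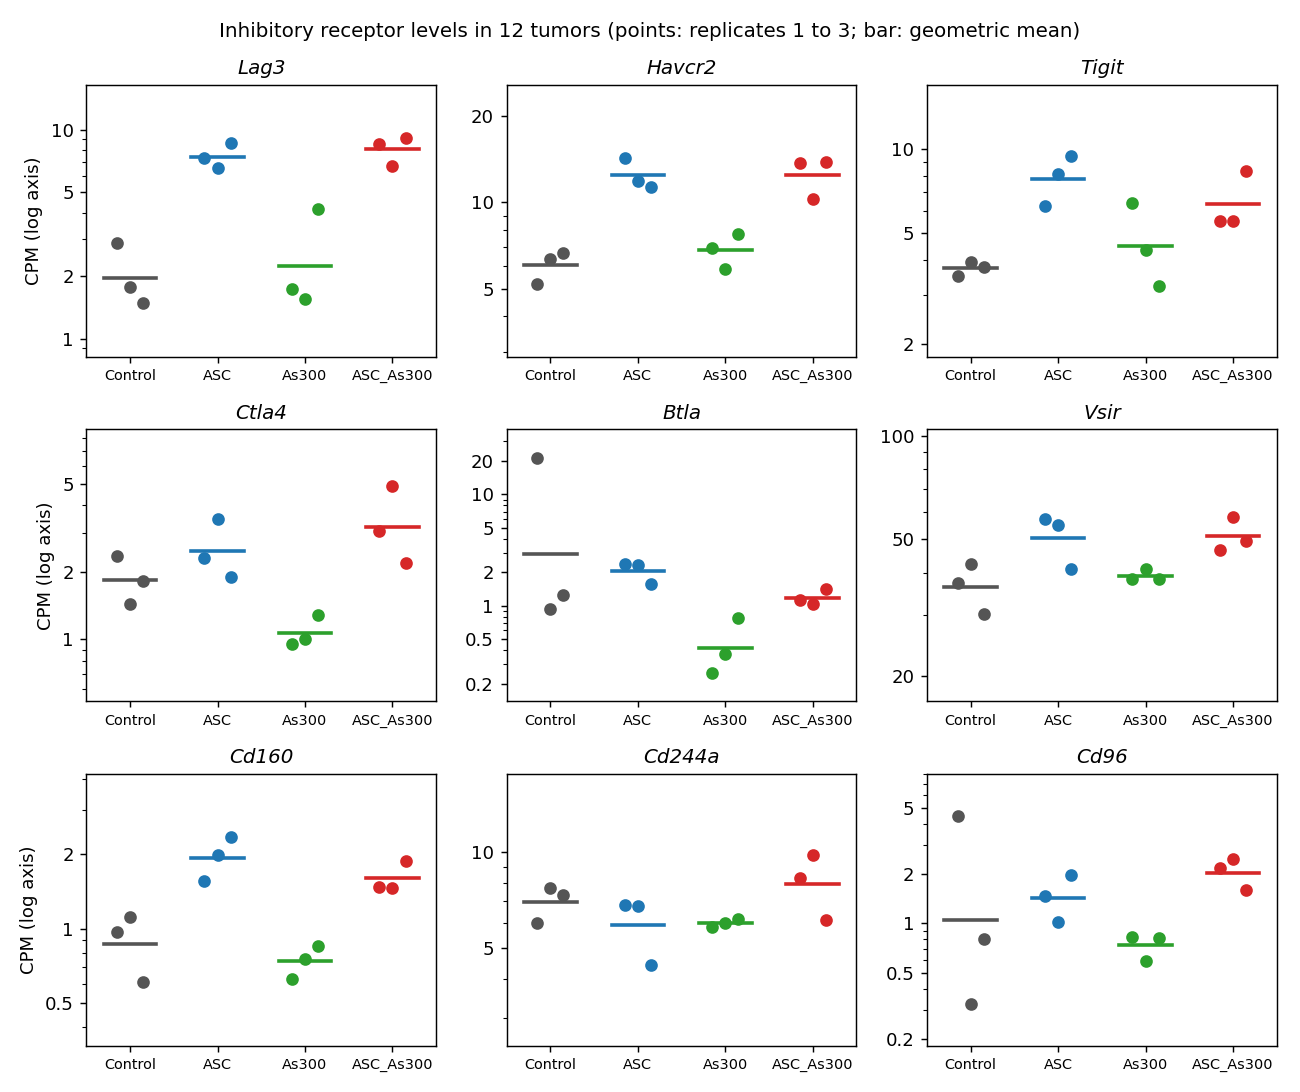
Level in CPM (log axis) of each of the 9 receptors, 1 panel each, with a point for each of the 3 tumors of Control, ASC, As300 and ASC_As300 and a bar at their geometric mean. For Lag3, Havcr2 and Cd160 the 6 tumors with ASC lie above the 6 without, and Control replicate 1 stands apart for Btla (21.3 CPM) and Cd96 (4.46 CPM).

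Ctla4 was lowest in As300. It stood at 2.38, 1.44 and 1.82 CPM in Control, 2.33, 3.46 and 1.91 in ASC, 0.951, 1.00 and 1.29 in As300, and 3.05, 4.86 and 2.20 CPM in ASC_As300. The As300 tumors lay below those of each other group, while Control, ASC and ASC_As300 overlapped. How many of all genes show such a separation was not computed. Vsir lay between 30.3 and 42.3 CPM in Control, 41.0 and 57.2 in ASC, 38.4 and 40.8 in As300, and 46.4 and 58.2 in ASC_As300. Cd244a, a SLAM family receptor of NK cells, T cells and myeloid cells that can inhibit or activate, lay between 5.99 and 7.71 CPM in Control, 4.43 and 6.82 in ASC, 5.83 and 6.14 in As300, and 6.13 and 9.78 in ASC_As300.

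The values of Btla and Cd96 in Control were set by a single tumor. Btla, which B cells carry at a high level, was at 21.3 CPM in Control replicate 1 and at 0.940 and 1.24 CPM in the other Control tumors. It was at 2.35, 2.31 and 1.56 CPM in ASC, 0.250, 0.368 and 0.777 in As300, and 1.12, 1.03 and 1.40 in ASC_As300. Cd96, a T and NK cell receptor for the poliovirus receptor, was at 4.46 CPM in the same Control tumor and at 0.326 and 0.803 CPM in the other Control tumors. Cd96 ranged from 1.02 to 1.96 CPM in ASC, 0.593 to 0.826 in As300 and 1.58 to 2.45 CPM in ASC_As300.

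The addition of ASC without iAs was examined by setting ASC against Control. Lag3 and Havcr2 rose, so that 2 of 9 members were called (adjusted p under 0.05 and at least 1.5-fold, by the quasi-likelihood test of edgeR over all genes) against a background of 0.706% of genes called higher. Lag3 was 3.66-fold higher (log2 fold change 1.87, SE 0.37, adjusted p = 0.0379) and Havcr2 2.06-fold higher (1.05, SE 0.18, adjusted p = 0.0153). Cd160 had a log2 fold change of 1.12 (SE 0.33, adjusted p = 0.156), Tigit 1.09 (SE 0.27, adjusted p = 0.0979), Vsir 0.48 (SE 0.14, adjusted p = 0.164) and Ctla4 0.45 (SE 0.35, adjusted p = 0.586), none of them called. Over the 9 members 6 values were above 0 and the median was 0.48, beside a median of -0.0044 over all genes and 49.5% of genes above 0. In 4 members (Lag3, Havcr2, Tigit and Cd160) the ASC tumors lay above the Control tumors, which 9.94% of genes did. DESeq2, which called 2.64% of its genes higher, called Tigit as well (adjusted p = 0.00398), while its adjusted p was not defined for Cd160 and Btla.

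The call of Lag3 in this comparison depended on single tumors. Its adjusted p rose to 0.14 without Control replicate 2, 0.158 without Control replicate 3, 0.0712 without ASC replicate 2 and 0.121 without ASC replicate 3, and to between 0.0517 and 0.0684 without each ASC_As300 tumor in turn. The Lag3 log2 fold change stayed between 1.70 and 2.21 over these omissions. Havcr2 lost its call without Control replicate 2 (adjusted p = 0.0533), neither was called in a fit to the 6 compared tumors alone (0.0522 for Lag3 and 0.0713 for Havcr2), and Tigit gained one without ASC replicate 1 (adjusted p = 0.0464). Without Control replicate 1 the called members were again Lag3 and Havcr2, the log2 fold change of Btla turned from -1.92 to 0.94 and that of Cd96 from -0.33 to 1.40, neither called.

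Exposure to iAs without ASC was examined by setting As300 against Control. No member was called by edgeR in either direction, against 0.701% of genes called higher and 0.355% called lower. DESeq2 called none, but it gave Btla no adjusted p in any comparison and so could not call it. At an unadjusted p under 0.05, 2 members were lower, Ctla4 and Btla, as were 13% of genes. Ctla4 had a log2 fold change of -0.79 (SE 0.35, adjusted p = 0.192) and its As300 tumors lay below the Control tumors. Btla had a log2 fold change of -4.05 (SE 1.01, adjusted p = 0.0518), which became -1.19 without Control replicate 1. Without ASC replicate 1 or ASC replicate 3, which are in neither group compared, Btla passed the threshold (adjusted p = 0.0468 and 0.0435). Such tumors enter the fit through the filter on counts, the normalization and the shared spread. These 2 members were those with no overlap between As300 and Control, and 15.4% of genes were separated in that direction.

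The other 7 members showed small or uncertain differences in As300. Lag3 had a log2 fold change of 0.29 (95% interval -0.50 to 1.08), Havcr2 0.18 (-0.21 to 0.57), Tigit 0.32 (-0.26 to 0.90), Vsir 0.10 (-0.22 to 0.41), Cd160 -0.27 (-0.99 to 0.45) and Cd244a -0.23 (-0.70 to 0.24). The interval of Havcr2 does not reach 0.585, the log2 of 1.5-fold, whereas those of Lag3 and Tigit do. Cd96, at -1.32, had an interval from -2.86 to 0.21, and its value was 0.42 without Control replicate 1. Over the 9 members the median was -0.23 beside -0.03 for all genes.

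ASC and iAs together were examined by setting ASC_As300 against the same Control tumors. As with ASC alone, Lag3 and Havcr2 were the 2 of 9 members called, both higher, against a background of 0.783%. Lag3 rose 3.97-fold (log2 fold change 1.99, SE 0.37, adjusted p = 0.0249 by edgeR) and Havcr2 2.08-fold (1.06, SE 0.18, adjusted p = 0.0136). Ctla4 had a log2 fold change of 0.84 (SE 0.35), Cd160 0.83 (SE 0.33), Tigit 0.79 (SE 0.27) and Vsir 0.49 (SE 0.14), with adjusted p between 0.151 and 0.285. In 5 members (Lag3, Havcr2, Tigit, Vsir and Cd160) the groups did not overlap, with 13.5% of all genes separated in that direction. Btla at -2.72 and Cd96 at 0.15 again rested on Control replicate 1, without which they were 0.12 and 1.87. Both calls were lost without Control replicate 2 (adjusted p = 0.101 for Lag3 and 0.0522 for Havcr2), without ASC_As300 replicate 1 (0.0647 and 0.0567) and without ASC_As300 replicate 3 (0.107 and 0.0885), and that of Lag3 also without Control replicate 3 (0.114).

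Within the iAs-exposed mice, ASC_As300 was set against As300, a contrast that uses no Control tumor in its difference. Each of the 9 members had a log2 fold change above 0, from 0.39 for Vsir to 1.70 for Lag3, with a median of 1.10 beside 2e-04 over all genes and 50% of genes above 0. Havcr2 was called (log2 fold change 0.88, SE 0.18, adjusted p = 0.0409), 1 of 9 members against a background of 0.793% called higher. Lag3 had a log2 fold change of 1.70 (SE 0.37, adjusted p = 0.0555) and Ctla4 1.64 (SE 0.36, adjusted p = 0.0588), both just short of the threshold, and DESeq2 called these beside Havcr2, with 1.4% of its genes called higher. In 7 members (all but Tigit and Cd244a) the tumors with ASC lay above those without, as did those of 11.3% of genes.

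These calls turned on single tumors in both directions. Without Control replicate 1, which is in neither group compared, Lag3 (adjusted p = 0.0302) and Ctla4 (0.0459) were called beside Havcr2, 3 of 9 members against 1.07% of genes. Leaving out this tumor changed the genes tested, the normalization and the shared spread. Lag3 was also called without As300 replicate 3 (log2 fold change 2.28, adjusted p = 0.00569). Havcr2 lost its call in 10 of the 12 omissions, all but those of Control replicate 1 and ASC_As300 replicate 2, with adjusted p up to 0.217 and a log2 fold change from 0.78 to 0.99.

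Averaged over both iAs levels, the 6 tumors with ASC were set against the 6 without, 6 tumors a side where the comparisons above had 3. Lag3 rose 3.45-fold (log2 fold change 1.79, SE 0.26, adjusted p = 0.00213 by edgeR), Havcr2 1.95-fold (0.96, SE 0.13, adjusted p = 0.000992) and Cd160 2.16-fold (1.11, SE 0.23, adjusted p = 0.0258). These are 3 of 9 members, against a background of 1.36% of genes called higher. The same 3 members were those whose 6 tumors with ASC all lay above the 6 without, which 1.68% of genes showed. Ctla4 had a log2 fold change of 1.04 (SE 0.25, adjusted p = 0.0574), Tigit 0.78 (SE 0.19, adjusted p = 0.0639) and Vsir 0.44 (SE 0.10, adjusted p = 0.052), and DESeq2, with 1.74% of its genes called higher, called Ctla4 and Tigit too. Cd96 was at 0.57 (SE 0.49), Cd244a at 0.10 (SE 0.15) and Btla at -0.30 (SE 0.65). The median over the members was 0.78 beside -0.0042 over all genes.

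The calls of Lag3 and Havcr2 in this comparison held in all 21 alternatives, with adjusted p of at most 0.00889 for Lag3 and 0.00491 for Havcr2. Among these, lifting the fold threshold reused the main fit and could not remove a call. That of Cd160 was lost in 8 of the 12 omissions of a tumor, those of Control replicate 3, ASC replicates 2 and 3, As300 replicates 1 and 2 and each of the 3 ASC_As300 tumors, with adjusted p up to 0.0879. Without Control replicate 1 the members called were 5, Lag3, Havcr2, Ctla4, Cd160 and Cd96, against 1.86% of genes, and all 9 log2 fold changes were above 0. Ctla4 then had adjusted p = 0.0421 and Cd96 0.0305, with a log2 fold change of 1.43 for Cd96 and 1.13 for Btla. Ctla4 was also called without ASC_As300 replicate 3 (adjusted p = 0.0451) and Tigit without As300 replicate 1 (adjusted p = 0.0219).

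**Figure D3:**
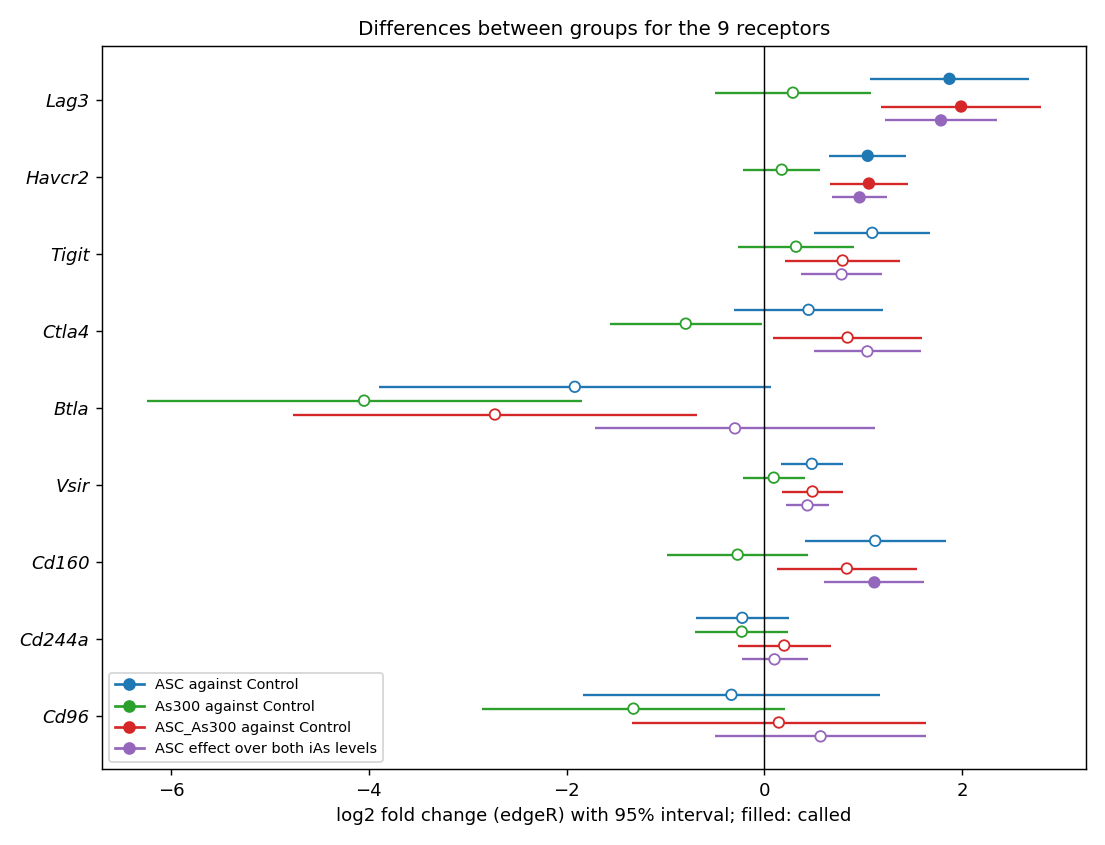
Log2 fold change of each of the 9 receptors (rows) with its 95% interval in 4 comparisons, from the edgeR fit to all 12 tumors; filled points are called, open points are not. Lag3 and Havcr2 are called in ASC against Control, ASC_As300 against Control and the average over both iAs levels, Cd160 only in that average, and the intervals of Btla are the widest.

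Adding iAs to tumors with ASC, ASC_As300 against ASC, gave no member called by edgeR or DESeq2, none at an unadjusted p under 0.05 (1.47% of genes were higher and 1.74% lower by that rule), and none of the 20818 genes called by edgeR (0%), where DESeq2 called 11 genes. Cd96 had a log2 fold change of 0.48 (95% interval -1.02 to 1.98), Cd244a 0.42 (-0.05 to 0.90), Ctla4 0.39 (-0.36 to 1.15) and Btla -0.81 (-2.77 to 1.16), and the other members lay between -0.30 and 0.12. For Havcr2 the interval was -0.37 to 0.40 and for Lag3 -0.65 to 0.89, so that a 1.5-fold difference lies outside the former and inside the latter. The iAs effect over both ASC levels likewise had no member and no gene called by edgeR (0%). DESeq2 called 114 genes, no member among them, with no adjusted p for Btla. By edgeR, Btla was the member under an unadjusted p of 0.05 (log2 fold change -2.43, SE 0.67, adjusted p = 0.181), where 8.46% of genes were lower by that rule. Without Control replicate 1 this value of Btla was -1.001.

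Whether the effect of ASC differed between iAs levels was tested by the interaction, and no member and no gene (0%) was called by edgeR. DESeq2 called 174 genes and no member, again with no adjusted p for Btla. At an unadjusted p under 0.05, which 7.08% of genes reached on the higher side, were Ctla4, with a difference of 1.19 (SE 0.49, adjusted p = 0.34), and Btla, with 3.24 (SE 1.31, adjusted p = 0.331), which became 0.38 without Control replicate 1. The 95% interval of the interaction was -1.27 to 0.93 for Lag3 and -0.71 to 0.38 for Havcr2. The comparisons with Control share its 3 tumors, and all comparisons share 1 estimate of the spread.

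The ligands of the receptors were followed next, as 19 genes of which 17 had enough counts. In the average over both iAs levels, 5 of 17 rose with ASC beside 1.36% of all genes, none fell, and the median was 0.32. MHC class II, the ligand of LAG-3, accounted for 3 of them. H2-Ab1, a class II chain, was at 196.6, 71.0 and 57.4 CPM in Control, 346.5, 325.4 and 379.9 in ASC, 100.9, 77.8 and 101.2 in As300, and 345.7, 343.4 and 444.7 in ASC_As300. All tumors with ASC lay above all without, Control replicate 1 being the highest of the latter. The log2 fold change was 1.86 for H2-Ab1 (SE 0.25, adjusted p = 0.00115), 1.71 for H2-Aa (SE 0.26, adjusted p = 0.0029) and 1.90 for H2-Eb1 (SE 0.25, adjusted p = 0.000852). Lgals3, a galectin that also binds LAG-3, was at 0.25 (SE 0.11, adjusted p = 0.439), and Fgl1 and Clec4g had at most 4 counts in any tumor and were not tested.

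Lgals9, which encodes the TIM-3 ligand galectin-9, rose with ASC (log2 fold change 0.65, SE 0.10, adjusted p = 0.00402). Its levels were 70.7, 69.9 and 59.1 CPM in Control, 93.9, 132.5 and 117.0 in ASC, 67.1, 64.2 and 78.1 in As300 and 81.5, 112.7 and 104.4 in ASC_As300. The groups with and without ASC did not overlap. Ceacam1 was at 0.32 (SE 0.19) and Hmgb1 at 0.00 (SE 0.08), neither called. Selplg, which encodes PSGL-1, a partner of VISTA and a selectin ligand of leukocytes, rose by 0.68 on the log2 scale (SE 0.15, adjusted p = 0.031), while Igsf11, which encodes VSIG3, had at most 21 counts per tumor (log2 fold change -0.39, SE 0.91).

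The ligands of TIGIT and CD96 gave a different picture. Pvr was at 0.02 (SE 0.06), Nectin1 at -0.19 (SE 0.07), Nectin2 at 0.04 (SE 0.09) and Nectin3 at 0.11 (SE 0.07) on the log2 scale, none called. The level of Pvr was between 52.4 and 54.2 CPM in Control, 49.1 and 53.8 in ASC, 45.3 and 53.6 in As300, and 50.2 and 55.9 in ASC_As300, so that all groups overlapped. Nectin1 lay between 41.2 and 44.9 CPM in As300 and at most at 33.7 elsewhere. Nectin3 lay between 15.6 and 16.2 CPM in As300 and at least at 17.6 elsewhere. Against Control alone, As300 lay apart in 14.5% of all genes on the higher side and 15.4% on the lower. The share of genes in which As300 lay apart from every other group was not computed. Of the CTLA-4 ligands, Cd80 was at 0.29 (SE 0.19) and Cd86 at 0.47 (SE 0.12, adjusted p = 0.0825). Tnfrsf14, which encodes HVEM, was at 1.03 (SE 0.33, adjusted p = 0.213) and Cd48 at 0.58 (SE 0.17, adjusted p = 0.143). With Control replicate 1 left out, Cd48 was called too (log2 fold change 0.70), making 6 of 17 beside 1.86% of all genes called higher. No ligand was called in As300 against Control.

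**Figure D4:**
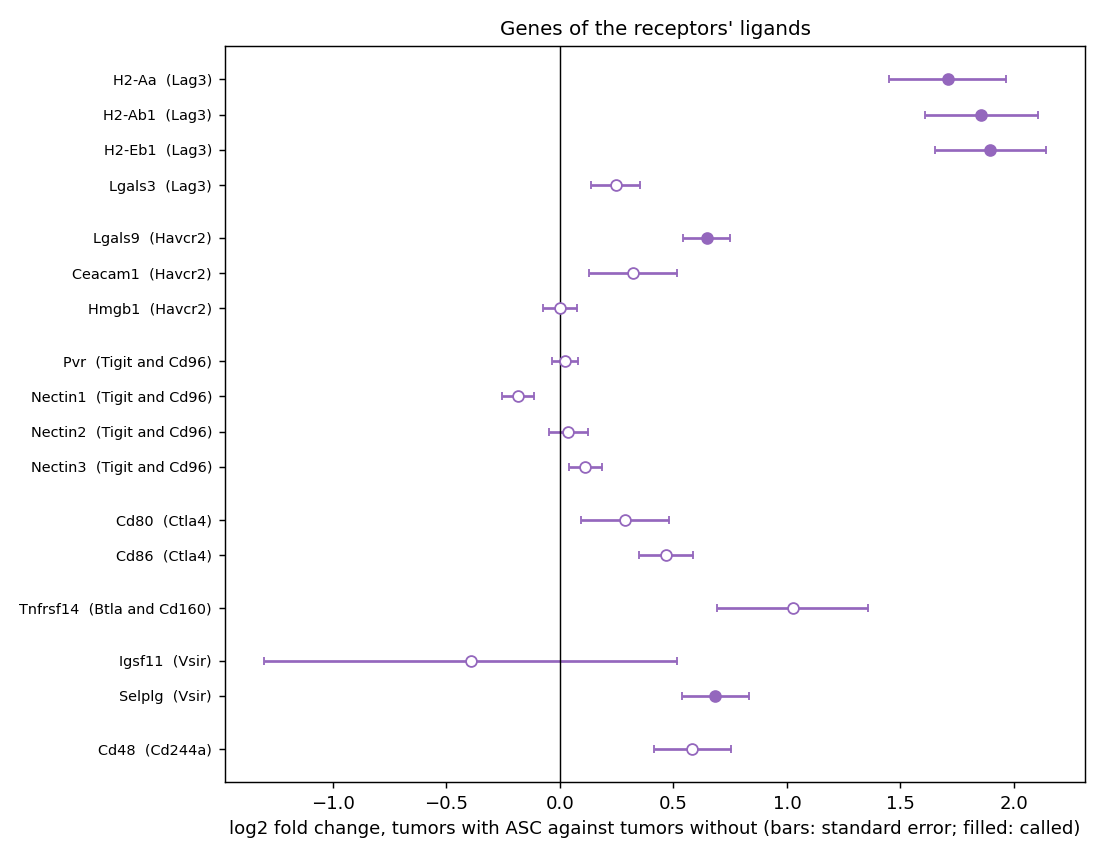
Log2 fold change between the 6 tumors with ASC and the 6 without for the 17 ligand genes tested, with the receptor they bind in parentheses; bars are standard errors and filled points are called. The class II genes lie between 1.71 and 1.90, Lgals9 and Selplg are the other called genes, and the 4 ligands of Tigit and Cd96 lie between -0.19 and 0.11.

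Activating receptors share ligands or cells with the members. Of 11 such genes tested, Slamf7 alone was called with ASC (log2 fold change 1.24, SE 0.15, adjusted p = 0.000492), beside 1.36% of all genes called higher. In the same contrast 10 of 11 were above 0, beside 49% of all genes, and the median was 0.66. Slamf7, a SLAM family receptor of NK cells, plasma cells and activated leukocytes, was between 3.32 and 5.11 CPM in Control, 6.46 and 9.35 in ASC, 2.58 and 3.30 in As300, and 7.80 and 9.38 in ASC_As300. Cd226, the activating counterpart of TIGIT, was at 1.10 (SE 0.37, adjusted p = 0.235), and Cd28, that of CTLA-4, at 0.96 (SE 0.33, adjusted p = 0.254). When Control replicate 1 was left out, Cd28, Cd27, Slamf6 and Slamf7 were called, 4 of 11 beside 1.86% of all genes called higher in that fit, with a median of 1.00.

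Of 11 signal adaptors, kinases and phosphatases, not all of them inhibitory, none was called with ASC by edgeR (median 0.14). Ptpn6, which encodes the phosphatase SHP-1, was at 0.73 (SE 0.18, adjusted p = 0.0735). Ptpn6, Sh2d1a and Lck were called without Control replicate 1, 3 of 11 beside 1.86% of all genes called higher. Of 15 transcription factors linked to activation and exhaustion of T cells, Tox alone was called, beside 1.36% of all genes called higher. Its log2 fold change was 2.36 (SE 0.39, adjusted p = 0.0055), and the list median was 0.17. Tox, a factor needed to keep exhausted CD8+ T cells, was at 1.78, 0.672 and 0.391 CPM in Control, 3.89, 2.84 and 4.78 in ASC, 0.651, 0.286 and 0.547 in As300, and 1.88, 2.82 and 4.93 in ASC_As300. Tbx21 joined it without Control replicate 1, 2 of 15 beside the same 1.86% of all genes. In the same contrast Pdcd1 (PD-1) was at 2.83 (adjusted p = 0.000575), Cd274 (PD-L1) at 1.70 (adjusted p = 3.2e-05), and Pdcd1lg2 (PD-L2) was at 1.42 (adjusted p = 0.224) and called without Control replicate 1.

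Of the T cell markers, 1 of 9 was called with ASC over all 12 tumors, beside 1.36% of all genes. This was Cd8a (log2 fold change 2.20, SE 0.49, adjusted p = 0.0381). Of the T cell genes, 8 of 9 were above 0, beside 49% of all genes, and the median was 1.24. Cd4 was at -0.11 (SE 0.28) and Foxp3, the factor of regulatory T cells, at 0.06 (SE 0.31). In the fit without Control replicate 1, 7 of the 9 T cell genes were called, Cd3d, Cd3e, Cd3g, Cd247, Cd5, Cd8a and Cd8b1, beside 1.86% of all genes called higher. Of the markers listed for other cells, Itgb2 (0.81, leukocytes), Itgax (0.97, dendritic cells) and Klre1 (1.33, adjusted p = 0.0366, NK cells) rose over all 12 tumors. So did Ly6a (1.68, adjusted p = 1.92e-05), the only gene called in the adipose stromal list, and the epithelial gene Krt8 fell by 2.03 on the log2 scale. These were 1 of 3 leukocyte, 1 of 5 dendritic cell, 1 of 4 NK cell, 1 of 7 adipose stromal cell and 1 of 4 epithelial genes. Leaving out Control replicate 1 gave 3 of 3 leukocyte genes (Ptprc, Itgb2 and Coro1a), 2 of 5 dendritic cell genes (Itgax and Clec9a), the plasma cell gene Jchain and no NK cell gene, and Ly6a and Krt8 were called again. Their part in the receptor levels was not tested. How far the number of T cells accounts for the receptor levels was not tested, since both were measured in the same RNA.

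The receptors were also expressed against the mean log2 CPM of Cd3d, Cd3e and Cd3g, as a description. Relative to these CD3 genes, the level of Lag3 differed by 0.03 between tumors with and without ASC, and by -0.33 without Control replicate 1, with overlapping values (0.33 to 0.99 with ASC, 0.52 to 1.78 without ASC). The other 8 members were lower relative to CD3 in the tumors with ASC, with differences from -0.74 for Cd160 to -1.75 for Cd244a over all 12 tumors. Without Control replicate 1, the tumors with ASC lay below those without for 5 members: Havcr2 (-1.38), Tigit (-1.54), Vsir (-1.85), Cd160 (-1.13) and Cd244a (-2.22). The CD3 level itself was 1.97 to 2.78 with ASC and -0.425 to 0.29 in the 5 other tumors without ASC. A gene unchanged in log2 CPM would therefore also lie lower on this scale. The share of all genes separated in this way was not computed. In log2 CPM itself, the same Havcr2 and Cd160 were higher with ASC, by 0.90 and 1.14 without that Control tumor. Relative to Ptprc, which encodes the leukocyte antigen CD45, Lag3 was higher with ASC by 1.33, Cd160 by 0.56, Ctla4 by 0.46, Havcr2 by 0.43, Cd96 by 0.38 and Tigit by 0.25. The differences relative to Ptprc were -0.45 for Cd244a, -0.10 for Vsir and -0.09 for Btla, and values overlapped for all 9 members.

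**Figure D5:**
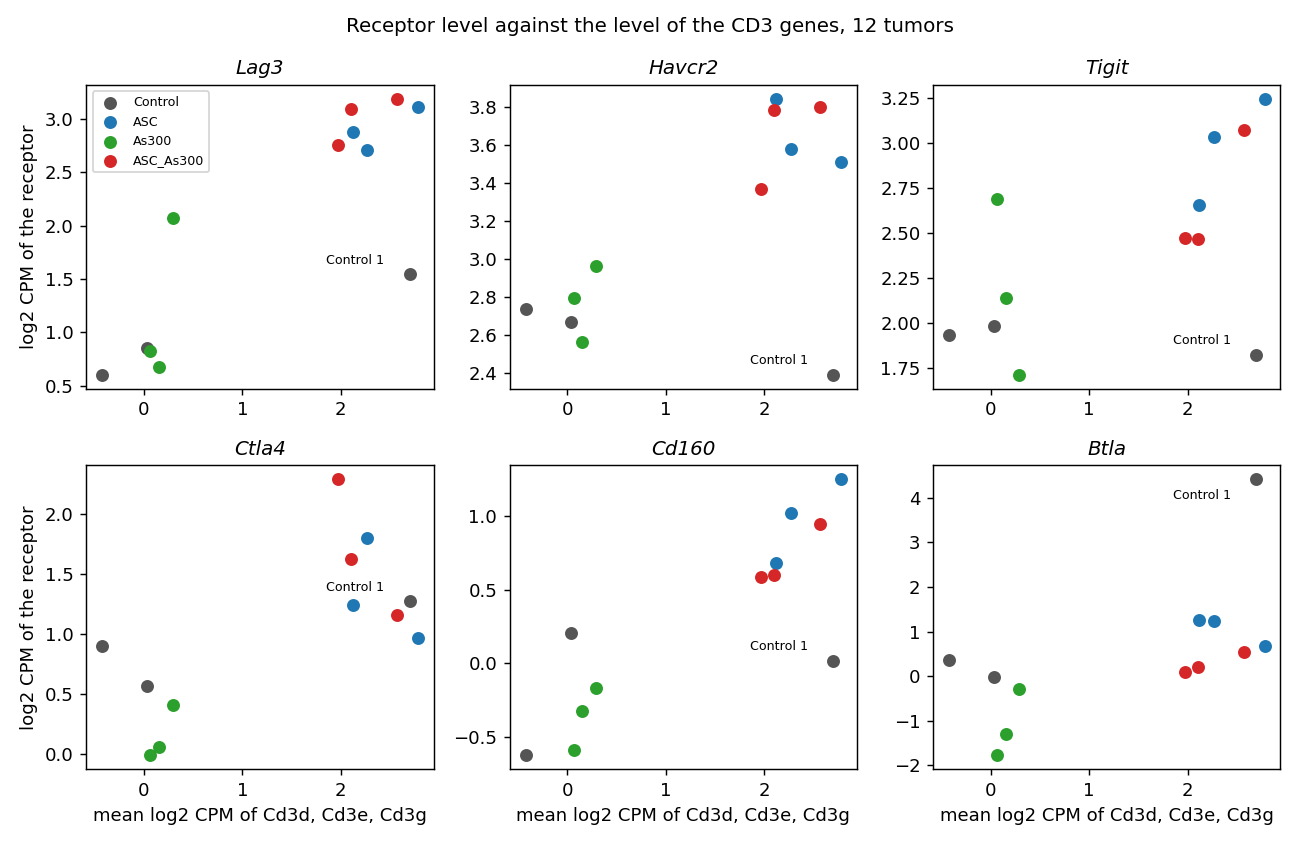
Log2 CPM of 6 receptors against the mean log2 CPM of Cd3d, Cd3e and Cd3g, a point for each of the 12 tumors colored by group. The 6 tumors with ASC lie at a CD3 level between 1.97 and 2.78, as does Control replicate 1 at 2.70, and that tumor lies below the tumors with ASC for Lag3, Havcr2, Tigit and Cd160 and above them for Btla.

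At a CD3 level of 2.70, Control replicate 1 fell within the range of the tumors with ASC, and some of its receptors did not. It held 2.87 CPM of Lag3, 5.21 of Havcr2, 3.49 of Tigit, 0.971 of Cd160 and 37.4 of Vsir, each below the lowest tumor with ASC. Its Ctla4 level of 2.38 CPM and its Cd244a level of 5.99 CPM were inside their range. Its Btla level of 21.3 CPM and its Cd96 level of 4.46 CPM were above the highest tumor with ASC. Its Cd8a level of 15.8 CPM was inside the range of the tumors with ASC (8.67 to 20.8), and its Cd4 level of 15.1 CPM was above theirs (3.10 to 6.91). This is a description of 1 tumor, whose B cell and lymph node genes stood apart as given above.

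The genes most like each receptor across the 12 tumors were found from the correlation of log2 CPM, a description in which groups, tumors and depth are shared. For Lag3 they were Apol9a (r = 0.97), Trafd1 (0.96) and Batf2 (0.96), and for Cd160 they were Zbp1 (0.96), Xaf1 (0.96) and Oas3 (0.95). Havcr2 was followed by Xdh (0.94), Fcgr4 (0.93), an Fc receptor of myeloid cells, and Lair1 (0.93), an inhibitory receptor of leukocytes. Vsir was followed by Aoah (0.96), Pirb (0.96) and Adgre1 (0.96), which encodes the macrophage marker F4/80. Tigit was nearest to Ccl4 (0.95), Loxl1 (0.94) and Bcat1 (0.93), and Ctla4 to BC147527 (0.92), Sumf1 (0.90) and Flt3l (0.89).

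Btla followed, among others, Pax5 (0.93), a factor of B cells, and Dgka (0.92), and its range was set by Control replicate 1. Cd96 was nearest to Mir5107 (0.93), Lad1 (0.91) and H2-Oa (0.90), and Cd244a to Bnip2 (0.89), Kank4 (0.85) and Cdyl (0.85). Once the group means were taken out, the correlation with Lag3 was 0.77 for Apol9a, and that with Havcr2 was 0.16 for Fcgr4 and 0.33 for Lair1, so that the likeness of Havcr2 to these genes lay mostly between groups. For Vsir and Adgre1 it stayed at 0.92. Among the receptors themselves, Lag3 and Havcr2 had r = 0.90 over the 12 tumors and 0.23 within groups, and Lag3 and Cd160 had 0.88 and 0.51.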

How the data were processed

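The authors trimmed paired-end reads (Cutadapt), aligned these (HISAT2) and used StringTie, gffcompare and Ballgown to quantify them. The genome build, the annotation and the step that made counts are not given in the sources used here. The deposited values are whole counts per Ensembl gene without normalization, and their low values pile up at multiples of 4. Genes were named from GENCODE M21. The fit used R 4.3.3 and edgeR 4.0.16 (filterByExpr, TMM, quasi-likelihood F test, 1 mean per group over all 12 tumors), with DESeq2 1.42.0 as an alternative, and was tested on simulated data. A call needed a Benjamini-Hochberg adjusted p under 0.05 over 20818 genes and a 1.5-fold change. With 3 tumors a group, the smallest p of an exact permutation test is 0.1. CPM values are counts per 1000000, with totals scaled by TMM, log2 CPM carries a prior count of 2, and RPKM divides CPM by merged exon length.

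The members, their ligands and all lists were chosen with earlier results of these data known. Genes named are the 9 members, their ligands, each list gene called over both iAs levels, Pdcd1 and its ligands, and the 3 genes with the highest correlation to each member, of which 1 is not reported here. Cd226, Cd28, Ptpn6, Cd4 and Foxp3 were named after their values were seen. Alternatives were another normalization, test, filter and fold threshold, GC content, the replicate number as a block, counts divided by 4, only the tumors compared, and each tumor left out. Nothing in the labels says which tumors share a cage or day, so p-values measure only the spread between these tumors.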

Additional observations from a re-analysis of the deposited data

Results flagged for a closer look

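The ASC difference of Cd244a had one sign without iAs and the opposite sign with it. The ASC tumors lay below the Control mean (-0.24 in log2 CPM, ASC minus Control). ASC replicates 1 and 2, at 6.82 and 6.78 CPM, were within the Control range of 5.99 to 7.71 CPM. ASC replicate 3, at 4.43 CPM, was below that range. The ASC_As300 tumors lay above the As300 mean (0.40, ASC_As300 minus As300). The iAs differences of Cd244a were likewise opposite, -0.22 for As300 minus Control and 0.42 for ASC_As300 minus ASC. In each of these comparisons the groups overlapped. Over omissions of a tumor, the edgeR log2 fold change of ASC against Control ran from -0.32 to -0.05, the latter without ASC replicate 3. The interaction of edgeR did not call Cd244a (adjusted p = 0.377).

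Btla differed by -0.53 in log2 CPM between ASC and Control and by 1.40 between ASC_As300 and As300, and its interaction was not called (adjusted p = 0.331). The iAs difference of Cd96 was -0.52 for As300 minus Control and 0.50 for ASC_As300 minus ASC, with an interaction at adjusted p = 0.436. Both values against Control rest on Control replicate 1.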

How the results depend on the processing

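All values come from 12 tumors in groups of 3, and Cd160, Cd96 and Btla rest on low counts. Lag3 and Havcr2 over both iAs levels were called under each alternative run, of which lifting the fold threshold could only add calls. Where 3 members were called there, DESeq2 called 5 and omissions of a tumor left 2 to 5. In ASC against Control, where 2 were called, correction for GC content left 1, alone or with the block, the fit of only the tumors compared 0, and omissions 0 to 3. In ASC_As300 against Control, also with 2, omissions left 0 to 2. In As300 against Control, with 0, a minimum of 10 counts in every tumor or counts divided by 4 gave 1 (Btla), and omissions 0 to 1. In ASC_As300 against As300, with 1, DESeq2 and the minimum of 10 counts gave 3, GC correction and counts divided by 4 gave 2, and no filter, the replicate block and the fit of only the tumors compared gave 0, with 0 to 3 over omissions. The cause of these changes was not tested. Over all genes DESeq2 called 450 in ASC against Control where edgeR called 150, 816 against 220 in As300 against Control, 390 against 168 in ASC_As300 against Control, 399 against 178 in ASC_As300 against As300 and 478 against 301 over both iAs levels. In As300 against Control, all genes called were 1 with GC correction, 0 with the block added, 8 with no filter and 0 without Control replicate 1. Replicate numbers were not treated as pairs in the main fit. Same-numbered tumors correlated from -0.12 to 0.17 in their deviations from the group means, over 0.1 in 2 of 18 pairs. With 3 tumors a group, these values cannot tell whether same-numbered tumors shared a cage, day or preparation. Over both iAs levels Cd160 lost its call with the block (adjusted p = 0.0582), block and GC correction (0.06) and no filter (0.0538), while Ctla4 gained one with GC correction (0.0496) and the minimum of 10 counts (0.0408).

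Directions turned mainly for Btla and Cd96. Over omissions, the log2 fold change of Btla ran from -2.42 to 0.94 in ASC against Control, -3.23 to 0.12 in ASC_As300 against Control and -0.56 to 1.13 over both iAs levels, where it was 0.0034 with the block and 0.0058 with block and GC correction. Cd96 ran from -0.81 to 1.40 in ASC against Control (0.0741 with the block, 0.16 with block and GC correction), -1.79 to 0.42 in As300 against Control and -0.34 to 1.87 in ASC_As300 against Control. In As300 against Control, Lag3 ran from -0.29 to 0.64 over omissions and was -0.0683 with block and GC correction, and Vsir was -0.05 with GC correction and -0.0378 with the block added. Havcr2 in ASC_As300 against ASC ran from -0.06 to 0.13, and the interaction of Lag3 from -0.52 to 0.40, with 0.10 under GC correction and 0.16 with the block added. Values for lists and CD3-relative levels without Control replicate 1 were chosen after seeing the data.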
